A study of Mus musculus with 16 samples.

Results

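Organoids grown from breast tumors of HER2 mutant mice were compared with organoids grown from breast tumors of PIK3CA mutant mice by RNA sequencing. All samples labelled with a single mutation were taken, 4 HER2 mutant and 4 PIK3CA mutant, which are 8 of the 16 samples of the series. The other samples are WT organoids from normal breast (n = 3) and organoids from tumors with both mutations (n = 5), and they are used here for the estimate of spread and as levels for orientation. The series title gives the alleles as HER2 V777L and PIK3CA H1047R. Organoids are multicellular structures that tissue cells form in culture, and all groups were kept in the same medium, which held epidermal growth factor at 50 ng/ml, a B27 supplement, N-acetyl-cysteine and medium conditioned with Rspo1 and Noggin. The labels used here do not give the promoter or Cre that drives either allele, the age of the mice, or whether the 4 samples of a genotype came from 4 mice, so p-values measure the spread between these samples, which may in part be technical. The series title names p21, CDK4/6 and cyclin D1 as the cell-cycle axis of interest, and the contrast of the single mutants asks how the states of these tumor organoids differ from each other.

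HER2 is a receptor tyrosine kinase with no known ligand of its own, and its mouse gene is Erbb2. It pairs with EGFR, ERBB3 and ERBB4 and signals through the RAS-ERK and the PI3K-AKT pathways, and the V777L change lies in its kinase domain. PIK3CA encodes the p110-alpha catalytic subunit of PI3K, and H1047R, also in the kinase domain, raises its activity without a receptor signal. AKT holds FOXO transcription factors out of the nucleus. In the mammary gland, prolactin acts through JAK2 and STAT5 to switch on milk protein genes in secretory luminal cells, while contractile basal (myoepithelial) cells surround them.

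Total counts were 47639790 to 64168308 in PIK3CA mutants and 45545182 to 52938963 in HER2 mutants, and 3 counts in a library corresponded to 0.0477 to 0.0668 CPM, which are counts scaled to a common library size. The HER2 mutants were more unlike one another than the PIK3CA mutants were. Over the 13398 genes with a mean log2 CPM of at least 1, the median coefficient of variation was 24.3% in HER2 mutants and 10.4% in PIK3CA mutants, and it was the larger in HER2 mutants for 11959 of them (89.3%). Libraries also differed in markers of non-epithelial cells. The summed level of 13 macrophage markers was 73.1 to 88.6 CPM in PIK3CA mutants, most of it from Cd163, and 261, 120.5, 55.5 and 30.4 CPM in HER2 mutant replicates 1 to 4. Without Cd163 it was 14.7 to 37.5 CPM against 232, 99.3, 35.5 and 9.64 CPM, and 4 of the 13 were at 0 counts in HER2 mutant replicate 4. The 12 fibroblast markers summed to 799, 837, 432 and 1235 CPM in PIK3CA mutants and to 47.3, 463, 379.9 and 797 CPM in HER2 mutants. None of the 12 passed edgeR's test (2 had an unadjusted p under 0.05, and DESeq2 called 1), although Col1a1 ranged from 9.98 to 250.4 CPM in PIK3CA mutants and from 21.4 to 352 CPM in HER2 mutants, highest in PIK3CA mutant replicate 4 and in HER2 mutant replicates 2 and 4. Lymphocyte markers (10 genes) summed to 0.254 to 0.678 CPM in PIK3CA mutants and to 0.698 to 2.43 CPM in HER2 mutants, and endothelial markers (10 genes) to 2.17 to 3.16 CPM and to 3.45 to 6.82 CPM, so that both sums were low but higher in every HER2 mutant. Adipocyte markers (8 genes) overlapped, at 1.89 to 4.2 CPM and at 3.39 to 6.2 CPM. Counts of called genes are therefore also given without HER2 mutant replicates 1 and 2, where macrophage markers were highest. They are also given without HER2 mutant replicates 2 and 4 and PIK3CA mutant replicate 4, where the fibroblast collagen gene Col1a1 was highest. That choice rests on Col1a1 and does not remove the fibroblast signal. The 12 markers summed to 463 CPM in the omitted HER2 mutant replicate 2. In the kept PIK3CA mutant replicates 1 and 2 they summed to 799 and 837 CPM.

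Of 24252 genes tested, 1069 (4.41%) differed between the genotypes at an adjusted p under 0.05 in edgeR's quasi-likelihood test. Among them, 536 (2.21%) were higher and 533 (2.2%) lower in HER2 mutants, and the rest of this text calls genes past that threshold risen or fallen in HER2 mutants relative to PIK3CA mutants. In 950 of the 1069 the 4 samples of one genotype all lay above the 4 of the other, as in 3032 (12.5%) of all genes tested. The calls rest on the same values, so much of this separation was fixed by the choice. The test takes a single spread per gene for the 4 genotypes, so it does not allow for the larger spread among HER2 mutants. In a fit of only the 8 samples, edgeR called 534 genes. The genes that rose had the steeper changes, with a median log2 fold change of 1.73 against -1.19 for those that fell, and 235 had a log2 fold change above 2 against 150 below -2. They were also the less expressed genes: the median of their mean levels was 1.79 CPM in PIK3CA mutants and 8.21 CPM in HER2 mutants, where that of the fallen genes was 42.7 and 17 CPM. The median log2 fold change over all genes tested was 0.07, against which the medians of gene lists below are to be read. Shares of list members called are to be read against the 4.41% over all genes tested. Without HER2 mutant replicates 1 and 2 the count of called genes was 675, without the 3 libraries rich in fibroblast collagen 700, and leaving out any PIK3CA mutant replicate brought it to 427 to 543. Leaving aside Neurod2, which is named below for its position, 67 genes named in this text passed. Of these 67, 20 missed the threshold in the first of these fits and 29 in the second. In these bulk samples, fewer cells of a type and less RNA per cell cannot be told apart.

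**Figure D1:**
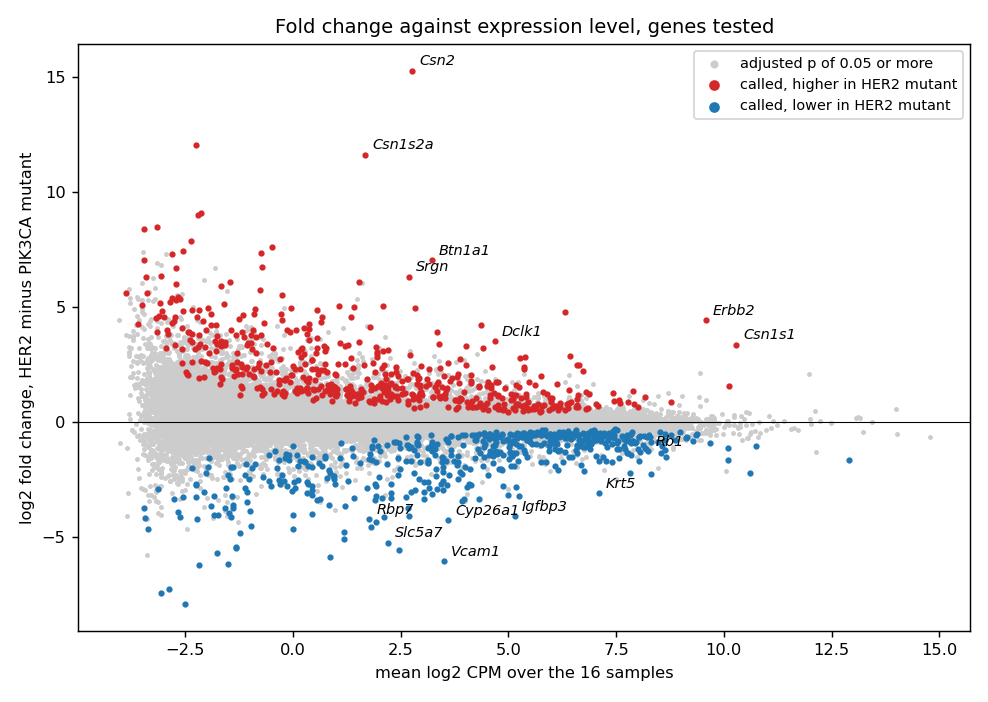
Log2 fold change of HER2 minus PIK3CA mutant organoids (vertical axis) against mean log2 CPM over the 16 samples (horizontal axis), 1 point per gene tested, red for the 536 genes that were higher and blue for the 533 that were lower in HER2 mutants at an adjusted p under 0.05. Csn2, Csn1s2a and Erbb2 stand out above, and Vcam1, Slc5a7, Cyp26a1 and Igfbp3 below.

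Erbb2 itself was far higher in HER2 mutants. It stood at 149, 165, 188 and 171 CPM in PIK3CA mutants and at 3385, 2696, 4632 and 3686 CPM in HER2 mutants. Its log2 fold change was 4.42 (SE 0.25, adjusted p = 2.39e-07), and the PIK3CA mutant level was near the WT level of 156 CPM ± 13.1 (SD, n = 3). The counts are per gene and do not tell the mutant from the normal transcript. Of the 10 protein-coding genes tested within 100 kb of Erbb2, Neurod2, at under 1 CPM in each mean, was the only other one that rose. The neighbors are named here for their position, after their values were seen: Mien1, whose end overlaps that of Erbb2, averaged 20.4 CPM in HER2 mutants and 20 CPM in PIK3CA mutants (log2 fold change 0.03, adjusted p = 0.959), and Stard3 had a log2 fold change of 0.68 (adjusted p = 0.121). Pik3ca was lower in HER2 mutants, at 61.4, 67.4, 74.1 and 65.0 CPM against 91.6, 106, 96.1 and 111 CPM. The groups did not overlap, and the log2 fold change was -0.59 (SE 0.10, adjusted p = 0.00457).

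Of 17 measured ErbB receptors, ligands and feedback genes, 2 rose (Erbb2 and the ligand gene Areg) and 3 fell (Egfr, Erbb3 and Grb7). Together these were 29.4%, and the median log2 fold change of the list was -0.2. Egfr and Erbb3 encode receptors that pair with HER2. Egfr was at 192, 192, 186 and 168 CPM in PIK3CA mutants and at 135, 99.8, 124 and 112 CPM in HER2 mutants (log2 fold change -0.65, SE 0.12, adjusted p = 0.00904). Erbb3 was at 302, 326, 323 and 318 CPM against 169, 244, 196 and 217 CPM (log2 fold change -0.62, SE 0.13, adjusted p = 0.0134). Grb7, an adaptor that binds the activated receptor and whose gene lies beside Erbb2, fell by 0.90 on the log2 scale (SE 0.15, adjusted p = 0.00492), from 80.3 to 108 CPM to a range of 41.4 to 60.9 CPM. Areg, the EGFR ligand amphiregulin, was at 0.864 to 2.75 CPM and at 3.21 to 10.9 CPM (log2 fold change 1.69, SE 0.39, adjusted p = 0.0244). The Areg call was lost without HER2 mutant replicate 3 or PIK3CA mutant replicate 1, 2 or 3 (adjusted p 0.0513 to 0.0725), while those of Egfr, Erbb3 and Grb7 held in each of the 8 fits that left out 1 library. Without the 3 libraries rich in fibroblast collagen, Egfr (adjusted p = 0.0749) and Pik3ca (0.0568) missed the threshold. Nrg1, a ligand of ERBB3 and ERBB4, was at 51.1 to 71.2 CPM and at 21.9 to 38.3 CPM without overlap, but did not pass (log2 fold change -1.05, adjusted p = 0.0714), and Erbb4 was low in both genotypes, at 0.811 to 5.14 CPM and at 0.0223 to 2.64 CPM (adjusted p = 0.381).

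Of the genes called in the lists downstream of the receptors, most fell. Among 18 PI3K subunits, AKT kinases and opposing phosphatases, 2 fell (11.1%, where 4.41% of all genes tested were called), Pik3ca and Phlpp1, and none rose. The list as a whole did not lean down: its median log2 fold change was 0.16, and 11 of the 18 were positive. DESeq2 called 4 members, 2 of them higher in HER2 mutants. Phlpp1, a phosphatase that removes an activating phosphate from AKT, was at 164 to 203 CPM in PIK3CA mutants and at 80.4 to 133 CPM in HER2 mutants (log2 fold change -0.71, SE 0.14, adjusted p = 0.0115). The Phlpp1 call was lost in edgeR's fit of only the 8 samples (adjusted p = 0.0695). Among 18 FOXO factors and genes that FOXO factors activate, 4 fell (Foxo1, Erbb3, Sesn3 and Cited2), 1 rose (Pdk4), together 27.8%, and the median log2 fold change was -0.3. Foxo1 was at 439, 368, 419 and 423 CPM in PIK3CA mutants and at 202, 220.4, 183 and 118 CPM in HER2 mutants, well apart (log2 fold change -1.19, SE 0.24, adjusted p = 0.0131). Sesn3, a stress-responsive sestrin, fell by 1.13 (SE 0.22, adjusted p = 0.0111) and the transcriptional co-regulator gene Cited2 by 0.85 (SE 0.18, adjusted p = 0.014) on the same scale. Cited2 missed the threshold in edgeR's fit of only the 8 samples (adjusted p = 0.0729). Without HER2 mutant replicates 1 and 2, both Cited2 (0.0686) and Sesn3 (0.0711) missed it. Foxo3 had a log2 fold change of 0.21 (adjusted p = 0.555). Pdk4, a kinase that restrains pyruvate dehydrogenase, was at 0.351 to 1.57 CPM in PIK3CA mutants. In HER2 mutants it was at 97.2 CPM in replicate 2 and at 0.798 to 12.5 CPM in the others. WT organoids had 14.7 to 56.1 CPM of Pdk4, so there the PIK3CA mutants were the lower ones (log2 fold change from WT -5.26, adjusted p = 0.0187). HER2 mutants had a log2 fold change from WT of -0.21 (adjusted p = 0.923). The Pdk4 call (log2 fold change 5.05, adjusted p = 0.0247) was lost without HER2 mutant replicate 2 (adjusted p = 0.0707) or without any PIK3CA mutant replicate (0.0569 to 0.0852). Without HER2 mutant replicates 1 and 2, and likewise without the 3 libraries rich in fibroblast collagen, 2 of the list fell and none rose, and Foxo1 missed the threshold in the latter fit (adjusted p = 0.0791).

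ERK feedback and immediate-early genes numbered 19, of which 3 fell (Dusp6, Egr1 and Phlda1) and 1 rose (Myc), together 21.1%. The median log2 fold change was -0.19. Dusp6, the phosphatase that ERK signaling induces against itself, was at 428, 481, 440.4 and 436 CPM in PIK3CA mutants and at 388, 175, 176 and 234 CPM in HER2 mutants (log2 fold change -0.88, SE 0.21, adjusted p = 0.028). Myc was at 89.8, 77.7, 69.9 and 109.7 CPM against 214, 197, 184 and 219 CPM, a rise of 1.23 (SE 0.29, adjusted p = 0.0254), with HER2 mutants at more than the highest PIK3CA mutant in every sample. Egr1 was at 1625 to 2662 CPM and at 742 to 1146 CPM (log2 fold change -1.14, SE 0.30, adjusted p = 0.0427). These calls were marginal: Myc was lost without PIK3CA mutant replicate 1, 2 or 3 (adjusted p 0.0667 to 0.0849), Dusp6 passed again only without HER2 mutant replicate 1 (0.0503 to 0.0841 in the other fits), Egr1 only without HER2 mutant replicate 2 (0.0516 to 0.119) and Phlda1 only without HER2 mutant replicate 1 or 4 (0.0576 to 0.098). Without HER2 mutant replicates 1 and 2, 1 of the 19 fell and none rose, and without the 3 libraries rich in fibroblast collagen none passed. The fitted difference from WT for Egr1 was 1.71 in PIK3CA mutants (adjusted p = 0.00705) and 0.57 in HER2 mutants (adjusted p = 0.282). For Myc it was 0.45 in PIK3CA mutants (adjusted p = 0.521) and 1.67 in HER2 mutants (adjusted p = 0.00504). Neither difference from WT passed for Dusp6 or Phlda1.

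Milk genes had the largest rises of all genes named here. Promoter sequence from the RefSeq table (GRCm38.p6) is shown for 4 of the 6 that rose and for Cish, because these carry the letters TTCNNNGAA, the form bound by STAT factors, within 250 bases before to 50 bases after the RefSeq start. On either strand these letters occur in 2726 of 32851 such windows (8.3%), and in 5 of the 14 milk list members that have one, the 4 shown and B4galt1, which did not pass. The window of Ltf, which rose, does not hold them, and Btn1a1, which rose too, is named only. They are in capitals in the sequences, written 5′ to 3′ on the gene's strand. Csn2 (beta-casein) is shown for chr5:87699426-87699675 on the minus strand, Csn1s1 (alpha-S1-casein) for chr5:87665958-87666207 on the plus strand and Glycam1 for chr15:103565082-103565331 on the minus strand, each the 250 bases before the start.
Csn2: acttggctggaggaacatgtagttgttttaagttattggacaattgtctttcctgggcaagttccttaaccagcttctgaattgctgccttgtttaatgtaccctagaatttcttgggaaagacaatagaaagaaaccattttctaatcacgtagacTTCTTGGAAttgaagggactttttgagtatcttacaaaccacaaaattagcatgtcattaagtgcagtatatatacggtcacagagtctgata
Csn1s1: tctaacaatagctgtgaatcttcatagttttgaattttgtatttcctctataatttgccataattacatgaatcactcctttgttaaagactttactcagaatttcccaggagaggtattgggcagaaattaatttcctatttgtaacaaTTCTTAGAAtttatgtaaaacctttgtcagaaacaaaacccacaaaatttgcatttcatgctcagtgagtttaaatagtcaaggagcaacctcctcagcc
Glycam1: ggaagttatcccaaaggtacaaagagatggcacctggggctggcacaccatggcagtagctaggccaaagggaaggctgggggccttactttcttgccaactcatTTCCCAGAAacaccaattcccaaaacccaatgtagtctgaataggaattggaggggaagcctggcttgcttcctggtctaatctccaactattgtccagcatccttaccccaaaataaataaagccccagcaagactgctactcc
For Csn1s2a (alpha-S2-casein A) and Cish the letters lie just after the RefSeq start, and 30 bases around them are given, chr5:87774460-87774489 on the plus strand and chr9:107296654-107296683 on the plus strand.
Csn1s2a: ttatagtgctTTCTTAGAAttacaatgact
Cish: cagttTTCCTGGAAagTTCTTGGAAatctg
The first letter stands 93 bases before the RefSeq start in Csn2, 100 in Csn1s1 and 145 in Glycam1. GENCODE M21 places some of these starts elsewhere: counted from its gene starts, the first letter stands 100 bases before the start in Csn1s1, 145 before in Glycam1 and 97 before in Csn1s2a, but 112 bases after it in Csn2 and 633 after it in Cish. Cish carries the letters 2 times, separated by a pair of bases. A match describes the sequence only.

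Of 19 milk protein and lactation genes measured, 6 (31.6%) rose in HER2 mutants (Csn2, Csn1s2a, Csn1s1, Glycam1, Btn1a1 and Ltf). None fell, and the median log2 fold change was 2.04. The 4 samples of each genotype did not overlap, with HER2 mutants higher, in 4 of the 19. Over all genes tested 1366 of 24252 (5.63%) did so. Csn2 was at 0.143, 0.124, 0.421 and 0.232 CPM in PIK3CA mutants, 6 to 19 counts in a library, and at 3092, 1304, 22709 and 8745 CPM in HER2 mutants. Its log2 fold change was 15.27 (SE 1.42, adjusted p = 7.35e-05). WT organoids had 0.035 to 0.334 CPM of it, so PIK3CA mutants were near the WT level, and organoids with both mutations had 0.883 to 12.8 CPM. Csn1s2a was at 0.461, 0.475, 0.133 and 0.375 CPM against 237, 107, 3128 and 1122 CPM (log2 fold change 11.61, SE 1.33, adjusted p = 0.000502). The ranking of the HER2 mutants was the same for both genes, with replicate 3 highest and replicate 2 lowest.

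Csn1s1 was expressed in PIK3CA mutants too, at 1355, 234, 484 and 490.3 CPM, and reached 3588, 1292, 13149 and 8156 CPM in HER2 mutants. Here the lowest HER2 mutant lay just under the highest PIK3CA mutant, and the log2 fold change was 3.35 (SE 0.65, adjusted p = 0.0104). Csn1s1 missed the threshold in edgeR's fit of only the 8 samples (adjusted p = 0.0615). Glycam1, a mucin-like whey component, had 1 count over the 4 PIK3CA mutant libraries and 72, 339, 4677 and 428 counts in the HER2 mutants, which is 1.36, 6.53, 104 and 8.76 CPM (adjusted p = 0.00133). Btn1a1, the butyrophilin of the milk fat globule membrane, was at 2.34, 1.28, 1.59 and 1.38 CPM against 77, 93.4, 326 and 364 CPM (log2 fold change 7.02, SE 0.78, adjusted p = 0.000465). Every HER2 mutant was far above every PIK3CA mutant for Btn1a1, as for Csn2, Csn1s2a and Glycam1. Ltf, the iron-binding lactoferrin, differed in kind: it was at 52.2 to 116 CPM in PIK3CA mutants, at 89.1 and 86.0 CPM in HER2 mutant replicates 1 and 4, and at 7383 and 1873 CPM in replicates 2 and 3. The Ltf call (log2 fold change 4.76, SE 1.22, adjusted p = 0.0391) was lost without HER2 mutant replicate 2 or without any PIK3CA mutant replicate (adjusted p 0.096 to 0.119).

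Other milk genes did not pass. Csn3 (kappa-casein) was abundant in both genotypes, at 13259, 8476, 13272 and 8898 CPM and at 16429.9, 3521, 12731 and 16082 CPM (log2 fold change 0.15, SE 0.42, adjusted p = 0.89). Wap, the whey acidic protein, had 15.9 CPM in HER2 mutant replicate 3 and at most 1 CPM in the other seven libraries (log2 fold change 3.68, adjusted p = 0.0981). Lalba, the lactose synthase subunit alpha-lactalbumin, was at 3.5 to 22.3 CPM in PIK3CA mutants and at 222, 9.93, 31.7 and 25.1 CPM in HER2 mutants (log2 fold change 2.94, adjusted p = 0.182). Mfge8, a milk fat globule protein, had a log2 fold change of -0.32 (adjusted p = 0.567) and the lipid droplet protein gene Plin2 one of 0.33 (adjusted p = 0.55). Without HER2 mutant replicates 1 and 2, 8 members rose, and without the 3 libraries rich in fibroblast collagen 5 did.

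**Figure D2:**
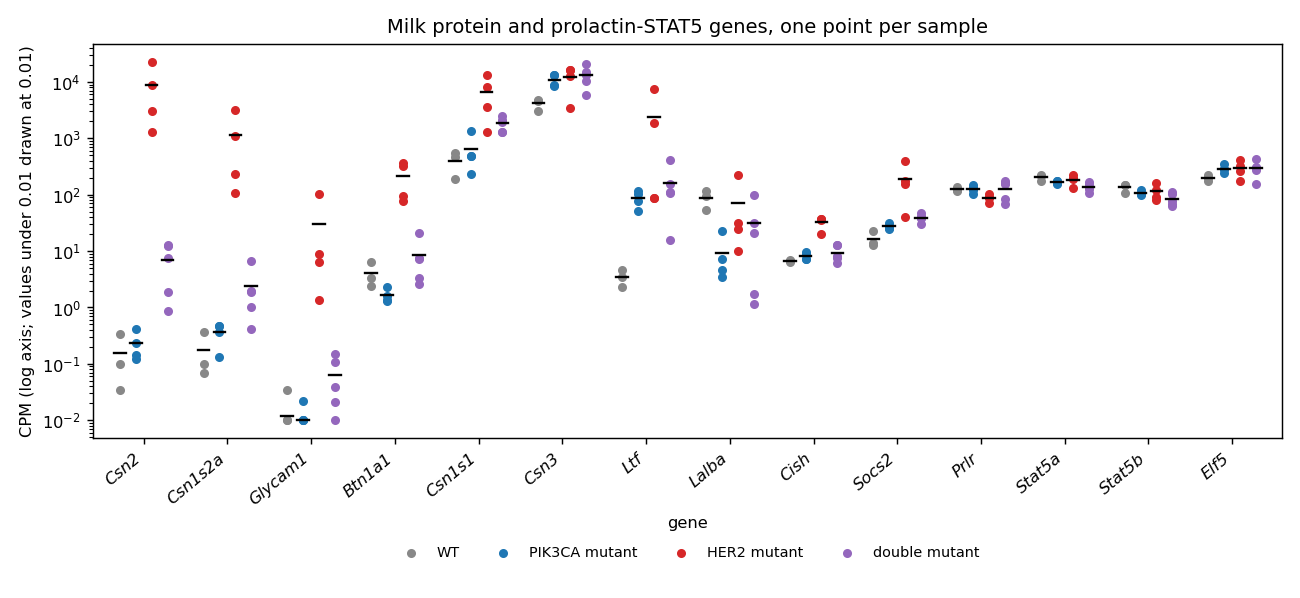
Levels of 14 milk protein and prolactin-STAT5 genes in CPM (vertical axis, log scale, values under 0.01 drawn at 0.01), with 1 point per sample in the 4 genotypes and a bar at the group mean. HER2 mutants lie above all other samples for Csn2, Csn1s2a, Btn1a1 and Glycam1, whereas Csn3, Stat5a, Stat5b and Elf5 overlap between HER2 and PIK3CA mutants.

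The caseins lie side by side on chromosome 5, which allowed the change to be followed along the locus. Within 300 kb of the Csn2 start, 8 genes were tested and 3 rose. They are named for their position. Csn1s1 starts 33.4 kb to one side of Csn2 and Csn1s2a 74.9 kb to the other. Csn1s2b, 108 kb away, was at 0.191, 0.186, 0.31 and 0.0179 CPM in PIK3CA mutants and at 0.434, 0.0193, 5.21 and 4.67 CPM in HER2 mutants. It was high only in replicates 3 and 4 and just missed the threshold (log2 fold change 3.87, SE 1.09, adjusted p = 0.0546). Odam, 185 kb away, had a log2 fold change of 1.92 (adjusted p = 0.221), and Csn3, 226 kb away, was the gene whose level was high in each genotype. Sult1d1 on the other flank, at 131 kb, averaged 0.238 CPM in HER2 and 0.205 CPM in PIK3CA mutants (log2 fold change 0.21, adjusted p = 0.923).

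**Figure D3:**
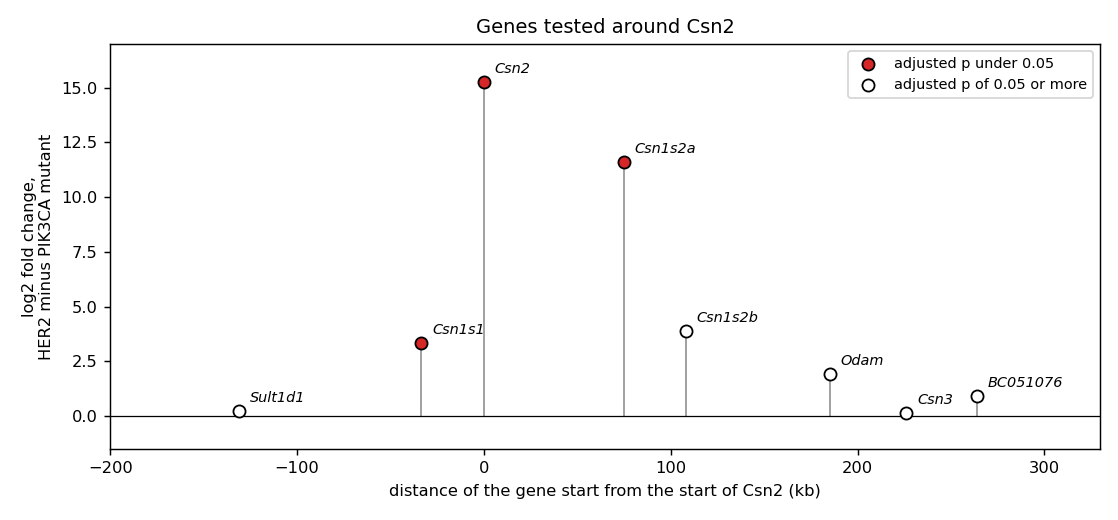
Log2 fold change of HER2 minus PIK3CA mutants (vertical axis) for the 8 genes tested within 300 kb of Csn2, against the distance of each gene's start from that of Csn2 in kb (horizontal axis), filled where the adjusted p was under 0.05. Csn1s1, Csn2 and Csn1s2a are filled, and Csn3, at 226 kb, sits near 0 (log2 fold change 0.15).

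Among 14 prolactin and STAT5 genes, 2 rose (Cish and Socs2) and 1 fell (Id2), together 21.4%, with a median log2 fold change of -0.11. Cish, an inhibitor of cytokine receptor signaling that STAT5 induces, was at 7.12, 7.27, 9.01 and 9.52 CPM in PIK3CA mutants and at 20.3, 37.2, 36.5 and 35.7 CPM in HER2 mutants (log2 fold change 1.98, SE 0.25, adjusted p = 0.000848). Socs2, another such inhibitor, was at 31.3, 27.7, 26.2 and 24.9 CPM against 396, 40, 154 and 178 CPM (log2 fold change 2.80, SE 0.45, adjusted p = 0.00379). Neither gene overlapped between the genotypes, and both calls held in each of the 8 fits that left out 1 library. The receptor and the transcription factors of the pathway did not pass. Prlr, the prolactin receptor, was at 104 to 146 CPM and at 72.2 to 103 CPM, without overlap (log2 fold change -0.52, SE 0.25, adjusted p = 0.267). Stat5a had a log2 fold change of 0.15 (SE 0.17, adjusted p = 0.671), Stat5b one of 0.09 (SE 0.22, adjusted p = 0.877) and the secretory lineage factor gene Elf5 one of 0.03 (SE 0.27, adjusted p = 0.97). Id2, a helix-loop-helix factor of alveolar cells, fell by 0.70 (SE 0.18, adjusted p = 0.0407), but passed again only without HER2 mutant replicate 1 (adjusted p 0.0601 to 0.117 in the other fits that left out 1 library).

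Of 20 fatty acid and cholesterol synthesis genes, 3 (15%) rose, none fell, and the median log2 fold change was 0.32. They were Fasn, the fatty acid synthase, Acly, which makes its acetyl-CoA, and Thrsp, a regulator of lipid synthesis in lactating gland. Fasn was at 808, 649, 797 and 739 CPM in PIK3CA mutants and at 2149, 1114, 2029 and 3412 CPM in HER2 mutants, without overlap (log2 fold change 1.54, SE 0.33, adjusted p = 0.0167). Acly was at 145 to 191 CPM and at 764, 292, 291 and 329 CPM (log2 fold change 1.33, adjusted p = 0.0213), and Thrsp at 0.0826 to 4.29 CPM and at 156, 3.78, 18.4 and 53.5 CPM (log2 fold change 4.94, adjusted p = 0.0181). Acaca, which carries out the step between Acly and Fasn, had a log2 fold change of 0.17 (SE 0.18, adjusted p = 0.661). Fasn was lost without PIK3CA mutant replicate 2 (adjusted p = 0.0672), Acly without replicate 2, 3 or 4 (0.0578 to 0.0726) and Thrsp without replicate 3 or 4 (0.0544 and 0.0627). The list had 4 risen members without HER2 mutant replicates 1 and 2, and without HER2 mutant replicate 2 it had 6.

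Other large rises were in genes outside the lists. Srgn, a proteoglycan of secretory granules that is abundant in leukocytes, was at 0.827, 0.392, 2.63 and 1.59 CPM in PIK3CA mutants and at 100.2, 40.1, 272 and 17.3 CPM in HER2 mutants (log2 fold change 6.31, SE 0.91, adjusted p = 0.00163). Its adjusted p was 0.00292 without HER2 mutant replicates 1 and 2. The macrophage markers without Cd163 summed to 232, 99.3, 35.5 and 9.64 CPM in the 4 HER2 mutants, and their part in the results on Srgn and the genes below was not tested. Wipf1, an actin regulator, was at 0.764 to 2.5 CPM and at 35.7, 11.5, 13.8 and 34.5 CPM (log2 fold change 4.10, SE 0.60, adjusted p = 0.00188). Wipf1 also averaged 15.9 CPM in WT organoids, so there the PIK3CA mutants were the lower ones (log2 fold change from WT -3.51, adjusted p = 0.00295). WT organoids also held more macrophage signal, with the 13 markers at 591 to 3552 CPM against 73.1 to 88.6 CPM in PIK3CA mutants. The part of that signal in the Wipf1 difference from WT was not tested. Dclk1, a microtubule-associated kinase, was at 8.55 to 22.7 CPM and at 48.2, 464, 116 and 96.7 CPM (log2 fold change 3.51, SE 0.57, adjusted p = 0.00401), and Duox1, an oxidase that makes hydrogen peroxide at the cell surface, at 8.14 to 15.6 CPM and at 650.4, 19.5, 61.2 and 71.3 CPM (log2 fold change 4.19, SE 0.81, adjusted p = 0.0097). These genes were chosen for large changes and for genotypes that do not overlap, so that the lack of overlap was fixed by the choice. Col27a1, a fibrillar collagen gene, rose likewise (log2 fold change 3.92, SE 0.71, adjusted p = 0.00738), from 1.94 to 6.27 CPM to a range of 8.48 to 95.8 CPM. The Duox1 call was lost in edgeR's fit of only the 8 samples (adjusted p = 0.0745).

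The gene that fell furthest of those named was Vcam1, an adhesion molecule of the immunoglobulin family through which cells bind integrin-bearing leukocytes. It was at 92.6, 82.8, 48.1 and 54.2 CPM in PIK3CA mutants and at 0.207, 1.37, 0.668 and 1.94 CPM in HER2 mutants (log2 fold change -6.05, SE 0.90, adjusted p = 0.00228). The WT level of 4 to 17.2 CPM lay between them, and the fitted difference from WT was 2.98 in PIK3CA mutants (adjusted p = 0.0639) and -3.07 in HER2 mutants (adjusted p = 0.0297). Of 24 integrins, laminins and adhesion molecules, 2 fell (Vcam1 and Itgb8) and 1 rose (L1cam), together 12.5%, and the median log2 fold change was 0.13. Itgb8, an integrin subunit that activates latent TGF-beta, was at 101 to 142 CPM and at 42 to 77.4 CPM (log2 fold change -0.99, SE 0.20, adjusted p = 0.0113). Icam1, a relative of Vcam1, was at 19.2 to 51.3 CPM and at 4.34 to 26 CPM and did not pass (log2 fold change -1.48, adjusted p = 0.114). L1cam, a neural adhesion molecule, was at 1.02 to 1.98 CPM and at 7.68, 7.19, 26.3 and 4.26 CPM (log2 fold change 2.93, adjusted p = 0.0213), a call lost without HER2 mutant replicate 3 or PIK3CA mutant replicate 1, 2 or 3 (adjusted p 0.0535 to 0.0744). Among 16 regulators of epithelial-mesenchymal transition and cadherins, Cdh2 (N-cadherin) alone passed, 6.25% of the list. Cdh2 was at 15.7, 14.1, 10.0 and 9.90 CPM against 0.113, 1.45, 1.47 and 1.97 CPM (log2 fold change -3.32, SE 0.68, adjusted p = 0.0132).

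Of the 25 gene lists, that of basal cell genes had the most fallen members. Of 20, 8 (40%) fell and none rose, with a median log2 fold change of -1.42. In 7 of the 20 HER2 mutants lay below all PIK3CA mutants, where 1666 of 24252 genes tested (6.87%) did so. Krt5, a keratin of basal cells, was at 412, 399, 99.6 and 274 CPM in PIK3CA mutants and at 44.8, 14.1, 52.0 and 25.6 CPM in HER2 mutants (log2 fold change -3.12, SE 0.56, adjusted p = 0.00673). Krt14, its partner keratin, was at 375, 303, 93.9 and 259.8 CPM and at 507, 179, 111 and 32.0 CPM, and did not pass (log2 fold change -0.32, SE 0.57, adjusted p = 0.82). Contractile genes fell: Mylk, the myosin light chain kinase, from 20.1 to 23.1 CPM to a range of 2.02 to 8.56 CPM (log2 fold change -2.18, SE 0.38, adjusted p = 0.00603), and Cnn1, calponin, from 3.65 to 13.8 CPM to a range of 0.655 to 1.72 CPM (log2 fold change -2.87, SE 0.61, adjusted p = 0.0161). Myh11, smooth muscle myosin, was at 2.5 to 5.07 CPM and at 0.962 to 1.45 CPM (log2 fold change -1.49, adjusted p = 0.0151), a call lost without PIK3CA mutant replicate 3 (adjusted p = 0.0554). In limma voom, Cnn1 (adjusted p = 0.065) and Myh11 (0.104) missed the threshold. In edgeR's test, both missed it without the 3 libraries rich in fibroblast collagen (0.114 and 0.0861). Without HER2 mutant replicates 1 and 2, Cnn1 missed it too (0.0711). Summed over the 20 genes, PIK3CA mutants had 19373 to 24206 CPM and HER2 mutants 4629 to 23120 CPM. Fibroblasts and vessel walls also express contractile genes, and 6 members fell without HER2 mutant replicates 1 and 2, but 2 without the 3 libraries rich in fibroblast collagen, where Krt5 missed the threshold (adjusted p = 0.0657). Single libraries also moved the count, to 4 without PIK3CA mutant replicate 1 or 2 and to 5 without PIK3CA mutant replicate 3 or 4 or HER2 mutant replicate 3. The part of fibroblasts in the result was not tested.

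Of 15 luminal keratins and luminal progenitor genes, 3 (20%) fell (Itgb3, Krt19 and Cd14), none rose, and the median log2 fold change was -0.54. Itgb3, an integrin subunit of luminal progenitors, was at 279, 226, 265 and 219.5 CPM in PIK3CA mutants and at 83.2, 81.3, 66.0 and 76.0 CPM in HER2 mutants (log2 fold change -1.69, SE 0.30, adjusted p = 0.00699). Krt19 was at 430.1, 415, 305 and 426 CPM against 226, 151, 110.0 and 149 CPM (log2 fold change -1.31, SE 0.31, adjusted p = 0.0276), and Cd14, a lipopolysaccharide co-receptor, at 573 to 752 CPM against 123 to 372 CPM (log2 fold change -1.22, SE 0.29, adjusted p = 0.0253). Krt8 had a log2 fold change of -0.73 (adjusted p = 0.117) and Krt18 one of -0.79 (adjusted p = 0.156). Keratin and progenitor genes stayed abundant as a whole: the 15 summed to 6150 to 6349 CPM in PIK3CA and to 4263 to 6545 CPM in HER2 mutants. Krt19 was lost without HER2 mutant replicate 3 or 4 or PIK3CA mutant replicate 1, 2 or 4 (adjusted p 0.0512 to 0.072), and Cd14 without PIK3CA mutant replicate 1, 2 or 3 (0.0534 to 0.0713). Without the 3 libraries rich in fibroblast collagen, Itgb3 was lost as well (0.0511) and 1 member of the list fell.

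Of 11 hormone-sensing luminal genes, Areg rose and Foxa1 fell, together 18.2%. Foxa1, the factor that opens chromatin for the estrogen receptor, was at 56.3, 60.0, 27.5 and 36.3 CPM in PIK3CA mutants and at 20.1, 11.3, 3.98 and 7.8 CPM in HER2 mutants (log2 fold change -2.06, SE 0.55, adjusted p = 0.045), and it passed again only without HER2 mutant replicate 1 (adjusted p 0.0625 to 0.116 in the other fits). Esr1, the estrogen receptor, had a log2 fold change of 0.30 (SE 0.22, adjusted p = 0.508). Pgr, the progesterone receptor, was at 11.9 to 23.7 CPM in PIK3CA mutants and at 0.396, 33.8, 0.69 and 5.73 CPM in HER2 mutants, with samples on either side of the PIK3CA mutants (log2 fold change -0.81, SE 1.09, adjusted p = 0.744).

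Notch pathway genes were among those that fell. Of 22 Wnt and Notch genes, 4 fell (Notch3, Hey1, Nrarp and Dkk3) and 1 rose (Wnt7b), together 22.7%, and the median log2 fold change was -0.36. Notch3, a receptor, was at 457, 412, 512 and 449 CPM in PIK3CA mutants and at 181, 235, 214 and 269.6 CPM in HER2 mutants (log2 fold change -1.02, SE 0.18, adjusted p = 0.00715). Hey1, a repressor that Notch induces, was at 498, 477, 518 and 369 CPM against 118, 96.5, 109.9 and 250.2 CPM (log2 fold change -1.70, SE 0.34, adjusted p = 0.0123), and its relative Hey2, which is not in the list, at 15.7, 8.99, 6.95 and 7.98 CPM against 0.113, 0.347, 0.668 and 0.532 CPM (log2 fold change -4.58, SE 0.61, adjusted p = 0.00109). Nrarp, a feedback inhibitor of Notch, fell by 1.38 (SE 0.30, adjusted p = 0.0191), a call lost without PIK3CA mutant replicate 2 (adjusted p = 0.065). The Hey1 call was lost without HER2 mutant replicates 1 and 2 (adjusted p = 0.0989). The fitted difference from WT for Notch3 was 1.32 in PIK3CA mutants (adjusted p = 0.00157) and 0.3 in HER2 mutants (adjusted p = 0.374). For Hey2 it was 0.1 in PIK3CA mutants (adjusted p = 0.952) and -4.48 in HER2 mutants (adjusted p = 0.000794). Neither difference from WT passed for Hey1 or Nrarp. Dkk3, a secreted protein of the Dickkopf family, was at 24.1 to 37.8 CPM and at 2.07 to 7.41 CPM (log2 fold change -2.85, SE 0.48, adjusted p = 0.00477; 0.0541 without the 3 libraries rich in fibroblast collagen). Wnt7b was at 26.7 to 37.2 CPM and at 45.8, 160.5, 208 and 79.8 CPM (log2 fold change 1.97, SE 0.48, adjusted p = 0.0294) and passed again only without HER2 mutant replicate 1 or 4 (0.0516 to 0.0911 in the other fits).

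Bmp2, a ligand of the BMP receptors, was at 14.5, 17.6, 16.6 and 23.1 CPM in PIK3CA mutants and at 0.283, 1.16, 0.178 and 1.82 CPM in HER2 mutants (log2 fold change -4.38, SE 0.58, adjusted p = 0.0011). WT organoids were in between, at 2.64 to 5.17 CPM, and the fitted differences from WT ran in opposite directions, 2.19 for PIK3CA mutants (adjusted p = 0.0439) and -2.19 for HER2 mutants (adjusted p = 0.0238). Igfbp3, a carrier of IGF, was at 183, 114, 53.1 and 94.7 CPM against 1.02, 5.96, 6.88 and 12 CPM (log2 fold change -4.11, SE 0.63, adjusted p = 0.00272), and Igfbp2, another carrier, at 10.7 to 27.7 CPM against 0.368 to 3.45 CPM (log2 fold change -4.10, SE 0.90, adjusted p = 0.0191). Slc5a7, a choline transporter, was at 16.2 to 36.7 CPM and at 0.223 to 1.13 CPM (log2 fold change -5.26, SE 0.93, adjusted p = 0.00634). WT organoids had 14.3 to 54.7 CPM of Slc5a7, so for this gene the HER2 mutants were the ones that differed from WT (log2 fold change -5.70, adjusted p = 0.00245). The calls of Bmp2, Igfbp3, Igfbp2 and Slc5a7 held in each of the 8 fits that left out 1 library. Igfbp2 (log2 fold change -3.53, adjusted p = 0.128) and Slc5a7 (adjusted p = 0.0544) were lost without HER2 mutant replicates 1 and 2, and Igfbp2 was lost without the 3 libraries rich in fibroblast collagen too (-3.23, adjusted p = 0.148).

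**Figure D4:**
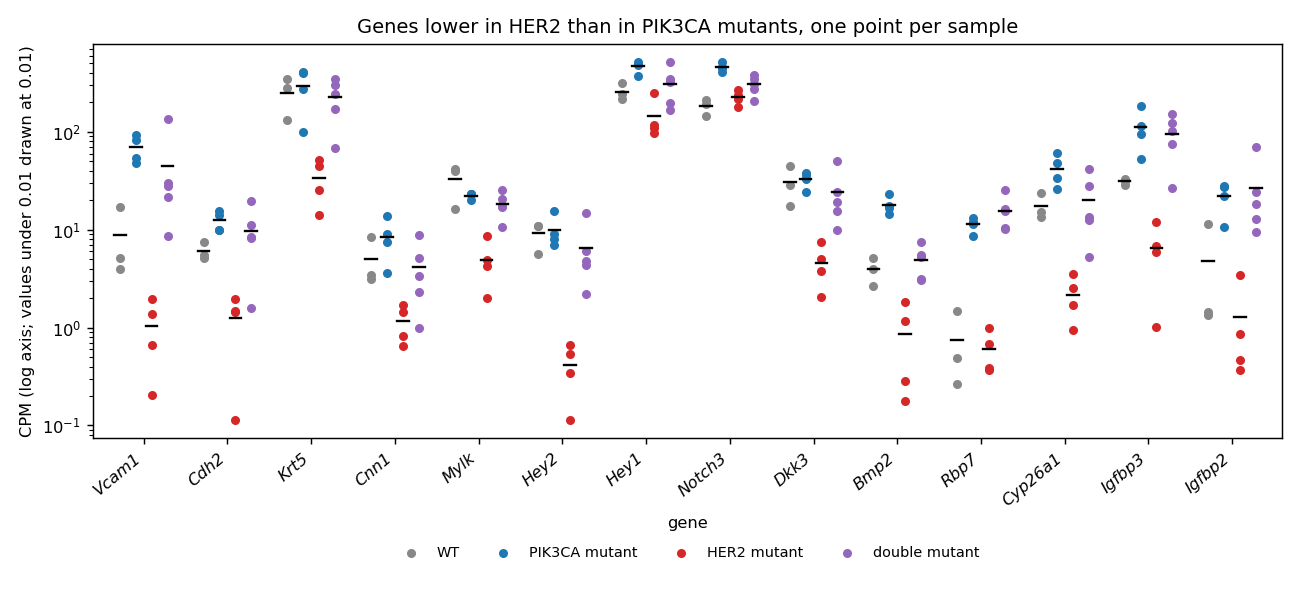
Levels in CPM (vertical axis, log scale) of 14 genes lower in HER2 than in PIK3CA mutants, with 1 point per sample in the 4 genotypes and a bar at the group mean. Rbp7 is low in WT and HER2 mutants and high in the other genotypes, while for Krt5, Mylk and Hey2 HER2 mutants lie below WT as well.

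Of 16 retinoid binding and metabolism genes, 3 (18.8%) fell (Rbp7, Cyp26a1 and Dhrs3) and none rose, with a median log2 fold change of -0.1. Rbp7, a cellular retinol-binding protein, was at 11.9, 13.3, 11.4 and 8.64 CPM in PIK3CA mutants and at 0.679, 0.385, 0.979 and 0.368 CPM in HER2 mutants (log2 fold change -4.23, SE 0.49, adjusted p = 0.000529). It was at 0.267 to 1.48 CPM in WT organoids, and the fitted difference from WT was 3.93 in PIK3CA mutants (adjusted p = 0.0011) and -0.30 in HER2 mutants (adjusted p = 0.752). Cyp26a1, the enzyme that clears retinoic acid and is itself induced by it, was at 60.1, 48.5, 33.4 and 25.8 CPM against 0.943, 2.54, 3.49 and 1.7 CPM (log2 fold change -4.27, SE 0.58, adjusted p = 0.0012). Its promoter is shown because it holds a match to the DR5 retinoic acid response element, a direct repeat with a spacer, in capitals and on the strand opposite to the gene. The 250 bases before the RefSeq start are chr19:37697558-37697807 on the plus strand (GRCm38.p6), and 32 of 32851 windows (0.0974%) hold such a match.
Cyp26a1: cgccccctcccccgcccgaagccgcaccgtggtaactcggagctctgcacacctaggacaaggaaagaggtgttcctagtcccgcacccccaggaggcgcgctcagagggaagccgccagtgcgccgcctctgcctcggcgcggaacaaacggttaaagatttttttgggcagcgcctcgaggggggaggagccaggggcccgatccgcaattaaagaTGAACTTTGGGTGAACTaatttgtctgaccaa
Dhrs3, which reduces retinaldehyde, was at 121 to 177 CPM and at 44.1 to 116 CPM (log2 fold change -1.07, SE 0.26, adjusted p = 0.0301), and passed again only without HER2 mutant replicate 3 or PIK3CA mutant replicate 1 (0.0516 to 0.0857 in the other fits).

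In the axis named by the series title, 2 of 19 genes (10.5%) of p21, CDK4/6 and cyclin D passed. Both fell, and the median log2 fold change of the list was -0.03. Rb1, the retinoblastoma protein that CDK4/6 inactivates, was at 368, 297, 430.1 and 354 CPM in PIK3CA mutants and at 131, 132, 234 and 94.6 CPM in HER2 mutants (log2 fold change -1.29, SE 0.22, adjusted p = 0.00586). The Rb1 call held in each of the 8 fits that left out 1 library, but not without HER2 mutant replicates 1 and 2 (adjusted p = 0.0508), where 1 member of the list passed, nor without the 3 libraries rich in fibroblast collagen (0.0546), where none did. Rb1 overlaps Rcbtb2 and Lpar6 in the annotation, and where strand was not counted their reads could be shared. Cdkn2c, an inhibitor of CDK4/6, was at 7.33 to 10.5 CPM and at 4.11 to 7.71 CPM (log2 fold change -0.86, SE 0.23, adjusted p = 0.048), and passed again only without HER2 mutant replicate 1 (0.0601 to 0.119 in the other fits). Cdkn1a, the gene of p21, was at 73.7, 85.1, 65.7 and 157 CPM against 263, 68.8, 209 and 57.7 CPM, so each genotype held high and low samples (log2 fold change 0.65, SE 0.48, adjusted p = 0.505). Cdk4 and Cdk6 had log2 fold changes of 0.05 (SE 0.18, adjusted p = 0.923) and 0.24 (SE 0.25, adjusted p = 0.661). Ccnd1, cyclin D1, was at 176 to 344 CPM and at 512, 164, 162 and 183 CPM (log2 fold change -0.07, SE 0.36, adjusted p = 0.947). None of 22 replication and mitosis genes passed in edgeR's test, in DESeq2 or in limma voom, and 2 had an unadjusted p under 0.05. Their median log2 fold change was 0.42, and Mki67, a marker of cycling cells, was at 108, 80.4, 43.6 and 55.3 CPM against 271, 34.3, 31.2 and 107 CPM.

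Of 15 genes that p53 activates, 3 (20%) rose (Zmat3, Pmaip1 and Eda2r), none fell, and the median log2 fold change was 0.37. Zmat3, a zinc finger RNA-binding protein, was at 64.9, 66.7, 55.7 and 93.0 CPM in PIK3CA mutants and at 252, 90.3, 185 and 109.6 CPM in HER2 mutants (log2 fold change 1.19, SE 0.29, adjusted p = 0.0294). Pmaip1, the pro-apoptotic Noxa, had a log2 fold change of 2.51 (SE 0.64, adjusted p = 0.0374) and Eda2r, a receptor of the TNF receptor family, one of 1.86 (SE 0.50, adjusted p = 0.0454). Trp53 itself had a log2 fold change of -0.07 (SE 0.14, adjusted p = 0.858) and its negative regulator Mdm2 one of 0.41 (adjusted p = 0.254). None of the 3 calls held in more than 3 of the 8 fits that left out 1 library, with adjusted p up to 0.137 for Eda2r without PIK3CA mutant replicate 2, up to 0.115 for Pmaip1 without the same library and up to 0.0943 for Zmat3 without PIK3CA mutant replicate 3. The list had 1 risen member without HER2 mutant replicates 1 and 2 and 6 without the 3 libraries rich in fibroblast collagen.

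Endoplasmic reticulum and unfolded protein response genes numbered 18, of which Asns rose and Herpud1 fell, together 11.1%. Herpud1, a component of protein degradation at that membrane, was at 145 to 164 CPM in PIK3CA mutants and at 68.2 to 106 CPM in HER2 mutants (log2 fold change -0.84, SE 0.16, adjusted p = 0.01). The chaperone gene Hspa5 was at 328 to 432 CPM and at 777, 374, 596 and 741 CPM (log2 fold change 0.72, SE 0.21, adjusted p = 0.0617). Asns, the asparagine synthetase, was at 13 to 19.8 CPM and at 26.5 to 64.3 CPM (log2 fold change 1.48, adjusted p = 0.0366), and passed again only without HER2 mutant replicate 2 or 3 (0.0611 to 0.112 in the other fits). Without HER2 mutant replicate 2, 4 members rose. None of 20 interferon-stimulated and MHC genes passed in edgeR's test, 1 had an unadjusted p under 0.05 and DESeq2 called 1. Of 16 antimicrobial and acute-phase genes only Orm1, the orosomucoid, rose (6.25%). It was at 0.124 to 0.443 CPM in PIK3CA mutants and at 3.26, 25.0, 14.1 and 0.0614 CPM in HER2 mutants (log2 fold change 4.93, adjusted p = 0.0214), a call lost without any PIK3CA mutant replicate (0.0598 to 0.078). Lcn2, the siderophore-binding lipocalin, was at 8812 to 12789 CPM and at 6819.6 to 16684 CPM (log2 fold change 0.15, SE 0.28, adjusted p = 0.828).

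Of the 13 macrophage markers Cd163 alone (7.69%) passed edgeR's test, and it fell. It was at 65.2, 51.8, 60.1 and 47.8 CPM in PIK3CA mutants and at 29.5, 21, 20 and 20.7 CPM in HER2 mutants (log2 fold change -1.30, SE 0.20, adjusted p = 0.00288). Cd163 is known as a hemoglobin scavenger receptor of macrophages. The other 12 markers had positive log2 fold changes, and within HER2 mutants Cd163 was highest in replicate 1, as their sum was. Between WT organoids and PIK3CA mutants Cd163 ran opposite to that sum. It averaged 5.33 CPM in WT organoids, where the other 12 summed to 583 to 3547 CPM. In PIK3CA mutants Cd163 averaged 56.2 CPM, where the other 12 summed to 14.7 to 37.5 CPM. At an unadjusted p under 0.05 there were 11 of the 13, DESeq2 called 4 (3 of them higher in HER2 mutants), and edgeR called 4 higher without HER2 mutant replicate 4 and 1 higher without replicate 3. Ptprc, the leukocyte antigen CD45, was at 0.0413 to 0.155 CPM in PIK3CA mutants, and at 2.73, 1.81, 0.0445 and 0.0409 CPM in HER2 mutants (adjusted p = 0.058). Csf1r, the receptor that macrophages need, was at 1.17 to 1.54 CPM and at 9.68, 4.09, 2.49 and 1.11 CPM (log2 fold change 1.62, adjusted p = 0.106). The median log2 fold change of the list was 3.02, and the part of macrophages in the results on other genes was not tested. Among 7 endothelial markers Egfl7 alone (14.3%) rose (log2 fold change 1.38, adjusted p = 0.0451), from 0.541 to 0.911 CPM to a range of 0.86 to 3.59 CPM. The Egfl7 call was lost without HER2 mutant replicate 2 or 3 or any PIK3CA mutant replicate (0.0603 to 0.133).

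**Figure D5:**
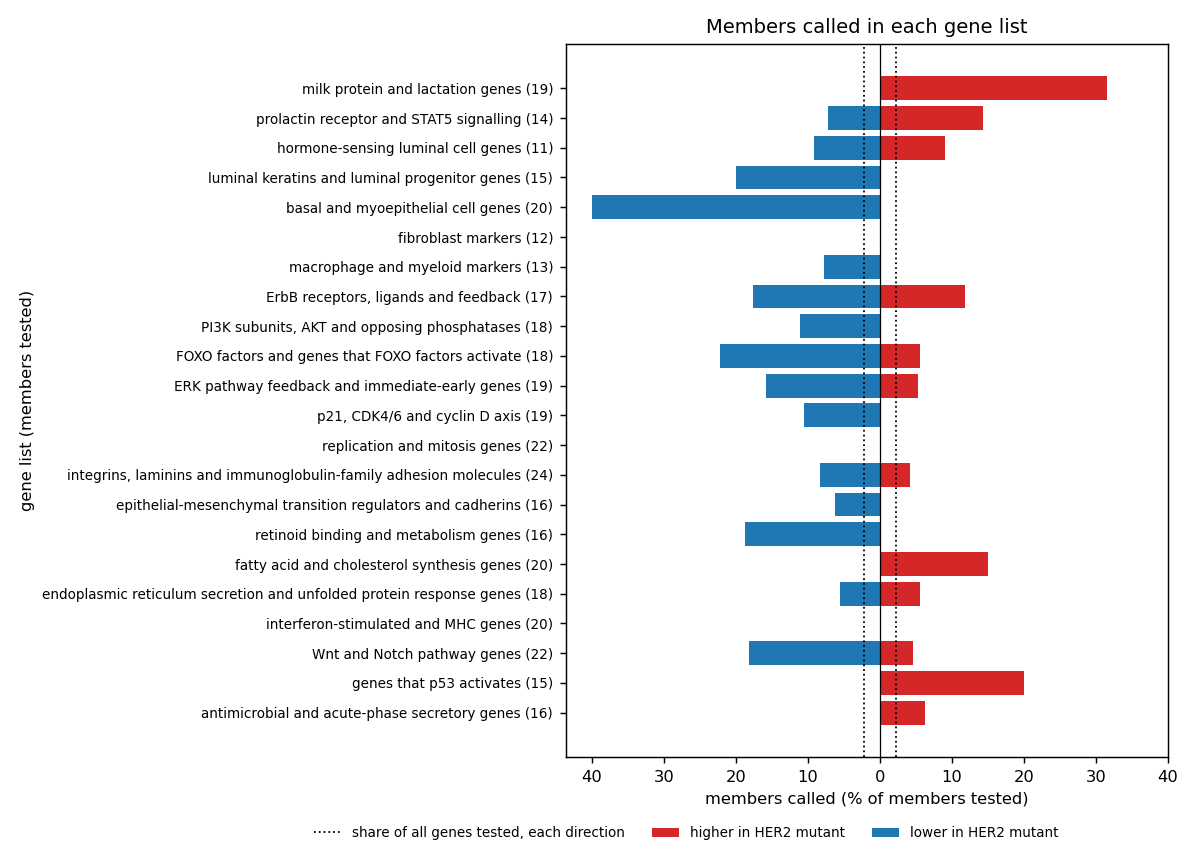
Members of each gene list that were higher (red, right) or lower (blue, left) in HER2 mutants at an adjusted p under 0.05, as a percentage of the members tested (horizontal axis; the number tested is in parentheses), with dotted lines at the shares over all genes tested, 2.21% and 2.2%. The lymphocyte, adipocyte and endothelial lists are not drawn. Milk genes reach farthest to the right and basal genes farthest to the left.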

How the data were processed

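RNA was sequenced from SMARTer mRNA-seq libraries, per the labels' protocols. Per the submitters' processing notes, bcl2fastq 2.20, STAR 2.0.4b, Subread, featureCounts 1.4.5, DESeq2 1.33.5 and the mm10 build were used, and strandedness and annotation are not given in the sources used here. The authors deposited whole-number read counts per Ensembl gene and a second table of normalized signal, which equals count divided by a size factor (largest relative difference 4.99e-10). Of 55774 entries, 287 repeats were dropped. In R 4.3.3, edgeR 4.0.16 fitted the counts of all 16 samples by genotype (TMM factors, filterByExpr, quasi-likelihood, two-sided, Benjamini-Hochberg over 24252 genes), and the SE is the absolute log2 fold change divided by the square root of F. CPM used TMM factors. The script was tested on simulated counts drawn with the same spread in all genotypes. That simulation does not cover the larger spread of the HER2 mutants. Named genes were the 12 with the largest change each way (adjusted p under 0.05, mean log2 CPM of at least 1, no overlap between genotypes), Erbb2, Pik3ca, and members of 25 lists: any of the milk, ErbB, cell-cycle and prolactin lists, elsewhere called members and the first pair listed; not all are printed, and some genes chosen by it are not reported here. Members and lists were chosen with earlier results of these data known. Positions are GENCODE M21 (GRCm38), where 38 of 99 named genes overlap another gene, so their reads may be shared. Counting error is covered by the test, and depth is given in the text. Alternatives were DESeq2 1.42.0, limma 3.58.1, other scalings and filters, a replicate block, only the 8 samples, and libraries left out, of which 2 joint omissions were chosen after seeing the data.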

Additional observations from a re-analysis of the deposited data

Results flagged for a closer look

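In 20 of 198 groups of 4 samples (99 genes in each of HER2 and PIK3CA mutants), 1 sample stood apart, its gap to the nearest of the others being larger than Dixon's critical value. In independent groups of normally distributed values about 1 in 20 would be flagged. The groups here share samples and many genes were chosen for their changes, so the 20 of 198 cannot be set against that rate. HER2 mutant replicate 1 was the highest of its group for Lalba (222 CPM), Acly (764 CPM), Duox1 (650.4 CPM), Ccnd1 (512 CPM), Cd163 (29.5 CPM) and Cdkn2c (7.71 CPM), and the lowest for Cish (20.3 CPM). HER2 mutant replicate 2 was the highest for Dclk1 (464 CPM), Pdk4 (97.2 CPM) and Pgr (33.8 CPM). HER2 mutant replicate 3 was the highest for Glycam1 (104 CPM), L1cam (26.3 CPM), Wap (15.9 CPM) and Igfbp2 (3.45 CPM), and HER2 mutant replicate 4 for Hey1 (250.2 CPM). Among PIK3CA mutants, replicate 1 was the lowest for Mylk (20.1 CPM) and Grb7 (80.3 CPM), replicate 3 the lowest for Krt19 (305 CPM) and the one with a count of Glycam1 (0.0221 CPM), and replicate 4 the highest for Mdm2 (95.2 CPM).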

How the results depend on the processing

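Against 1069 called genes (536 higher, 533 lower), DESeq2 called 2136 (1188 higher, 948 lower) and a fit of only the 8 samples 534 (237 higher, 297 lower), of which 473 are among the 1069. limma voom with sample weights called 805 lower. Leaving out 1 library gave 427 to 1166 genes in total, 171 to 643 higher and 249 to 564 lower, with 463, 427, 468 and 543 in total without PIK3CA mutant replicates 1 to 4. Without HER2 mutant replicates 1 and 2 there were 675 (356 higher, 319 lower), and without HER2 mutant replicates 2 and 4 and PIK3CA mutant replicate 4 there were 700, 303 of them lower. The cause was not tested. With a replicate block, 552 genes were called (253 higher, 299 lower) in the fit of 16 samples and 65 (28 higher, 37 lower) in that of 8. The labels used here do not say whether equal numbers pair samples. Deviations of same-numbered samples correlated at 0.092, -0.089, -0.118 and -0.059. So few correlations over all genes cannot exclude a shared batch. Neurod2 is not counted among the 67 named genes that passed. Of the 67, none reversed in direction under any alternative run, 41 passed in all 8 fits that left out 1 library, 5 to 24 were lost when 1 library was left out (24 without PIK3CA mutant replicate 2), 20 without HER2 mutant replicates 1 and 2, 29 without HER2 mutant replicates 2 and 4 and PIK3CA mutant replicate 4, 22 in the fit of 8 samples, and 16 and 47 with the block in 16 and in 8 samples. Upper-quartile scaling moved the median log2 fold change of all genes from 0.07 to 0.12. At 3 counts, levels under 0.0477 to 0.0668 CPM were not measurable.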

Other observations

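Organoids with both mutations (n = 5) took different places between the single mutants, depending on the gene. For Rbp7 they were at 10.2 to 25.2 CPM, where PIK3CA mutants were at 8.64 to 13.3 CPM and HER2 mutants at 0.368 to 0.979 CPM (log2 fold change from HER2 mutants 4.69, edgeR adjusted p = 0.000558; from PIK3CA mutants 0.46, adjusted p = 0.713). Rb1 and Krt5 were higher than in HER2 mutants as well: Rb1 was at 277 to 403 CPM (log2 fold change from HER2 mutants 1.20, adjusted p = 0.00961) and Krt5 at 69.0 to 346 CPM (2.73, adjusted p = 0.0152). Cish and Dclk1, which were higher in HER2 mutants, stood at 6.08 to 12.7 CPM and at 10.3 to 25.0 CPM with both mutations (log2 fold change from HER2 mutants -1.78, adjusted p = 0.0014, and -3.50, adjusted p = 0.00393). Erbb3 and Grb7 were instead below both single mutants: Erbb3 was at 128 to 162 CPM (-0.56 from HER2 mutants, adjusted p = 0.0239, and -1.18 from PIK3CA mutants, adjusted p = 0.000332). Grb7 was at 26.9 to 37.6 CPM (-0.73, adjusted p = 0.0152, and -1.63, adjusted p = 6.79e-05). These contrasts share samples with the comparison of the single mutants.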
